A study of Mus musculus with 24 samples.

Results

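The clustered protocadherins are cell adhesion proteins encoded by the alpha, beta and gamma gene clusters, and they were followed here through poly(A)-selected RNA of 4 mouse brain regions in Cdr1as-knockout and wild-type C57BL/6 mice. Members were all genes with a symbol of the Pcdha, Pcdhb or Pcdhg series, matched by Ensembl identifier. Of 58 such identifiers in the reference table, 24 had a row among the 37621 gene rows of the count tables. These were all 22 beta genes, 1 alpha identifier and 1 gamma identifier, while 13 alpha and 21 gamma identifiers had no row of their own. The tissues were dissected cerebellum, cortex, hippocampus and olfactory bulb. Each was taken from knockout and from wild-type mice, which gave 8 groups of 3 libraries, 24 in all. Cdr1as, the deleted gene, gives a circular RNA that binds the microRNA miR-7, and the labels describe the genotypes only as the knockout and as wild type. Age, sex and the way the allele was made are not given in the sources used here.

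In mammals each cluster holds a row of similar genes that encode receptors with cadherin repeats, which bind the same receptor on a neighbouring cell. In the alpha and gamma clusters, each variable first exon has its own promoter and is spliced to constant exons shared by the whole cluster. Beta genes are known to have a single coding exon and no constant exons. Single neurons are known to use few of these promoters at a time, chosen with the help of CTCF and cohesin, and the resulting combinations take part in self-recognition and dendritic self-avoidance.

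Because of this gene structure, the beta genes were read one at a time, while the alpha and gamma identifiers were read only as whole count rows. The alpha row is ENSMUSG00000007440, named Pcdha11 in the reference table, and the gamma row is ENSMUSG00000023036, named Pcdhgc4 there. Both counts exceeded that of any beta gene in every group mean: the alpha row averaged 149 to 232 CPM (counts relative to library size, scaled with TMM factors) and the gamma row 700.2 to 799 CPM, whereas the whole beta cluster summed to 137 to 189 CPM. How much of each cluster these rows cover in the counting annotation is not given in the sources used here, so no value was assigned to a single alpha or gamma gene. The C-type members Pcdhac1, Pcdhac2, Pcdhgc3 and Pcdhgc5 therefore have no value here, and Pcdhgc4 none apart from the whole gamma row. In the GRCm38 reference all members lie on chromosome 18 on the plus strand, and the beta genes are numbered in genomic order. Between 0% and 12% of the 50-base stretches of a beta transcript also occur in another beta gene, so reads of the most alike beta genes can be lost or split. Pcdhb12 shares 64.2% of its stretches with other annotated genes of any kind. Of its exonic bases, 63.5% overlap other annotated genes, but 0% overlap a gene with a count row. Whether RNA of those other genes enters the Pcdhb12 counts was not tested.

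Library depth was 21068566 to 40472007 gene counts, and the members together took 0.0904% to 0.127% of them. The row for the targeted locus, Cdr1asG, had 0.124 to 1.90 CPM in knockout libraries and 2.26 to 29.6 CPM in wild-type libraries. Regional markers were highest in the region they name: all 8 cerebellum, 6 cortex, 7 hippocampus and 7 bulb markers were higher there than in the mean of the other wild-type regions. The labels do not say that the 3 libraries of a group come from separate animals, so p-values measure only the spread between these libraries. In dissected tissue, fewer cells that use a gene and less RNA per cell cannot be told apart.

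Levels within the beta cluster were uneven, with the same few genes leading in each region. Per kilobase of exon, the highest wild-type values belonged to Pcdhb20 in the cerebellum (4.27 ± 0.099 CPM per kb) and to Pcdhb9 in the cortex (4.35 ± 0.81), hippocampus (3.98 ± 0.15) and olfactory bulb (4.63 ± 0.13; SD, n = 3). In the wild-type bulb the lead of Pcdhb9 was smaller than the spread, since Pcdhb20 had 4.62 ± 0.31 and Pcdhb17 4.57 ± 0.15 CPM per kb. In the wild-type cortex Pcdhb9 also stood within its SD of Pcdhb20, which had 3.82 ± 0.070 CPM per kb. Per kilobase of coding length the order changed, and Pcdhb17 was highest in all 8 groups, with 6.63 to 9.16 CPM per kb in knockout and 6.84 to 8.89 CPM per kb in wild-type tissue. The median of the 22 beta genes was 1.31 to 1.77 CPM per kb over the 8 groups.

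At the low end, Pcdhb1, the first gene of the cluster, had 0 to 7 counts in any library and did not pass the filter on low counts, so it entered no test. The lowest of the 21 tested beta genes per kilobase was Pcdhb2 in the wild-type cerebellum (0.612 ± 0.27 CPM per kb), Pcdhb4 in the wild-type cortex (0.448 ± 0.13), and Pcdhb21 in the wild-type hippocampus (0.607 ± 0.30) and bulb (0.830 ± 0.45). The 5 most abundant beta genes by CPM held 40.9% to 43.8% of the beta counts of a group. Knockout and wild-type bars stood close to each other throughout the plot of levels per kilobase.

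**Figure D1:**
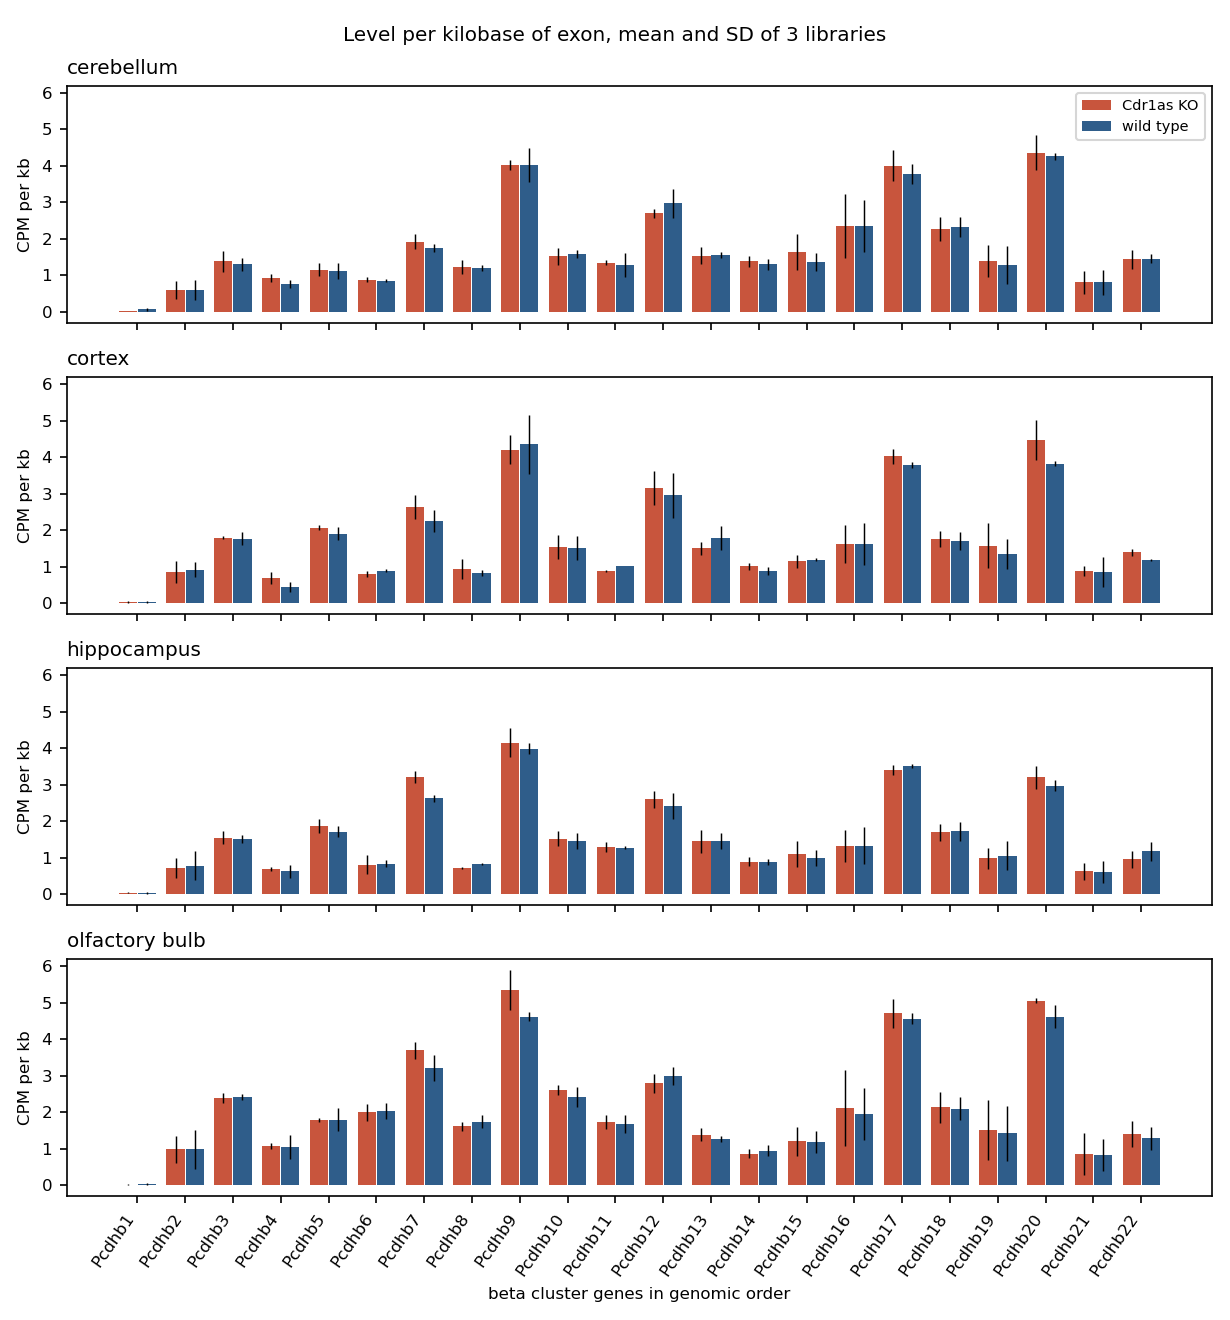
Level of each beta gene in CPM per kilobase of exonic length (vertical axis), in genomic order (horizontal axis), with a panel for each region; bars are the mean and lines the SD of 3 libraries, red for Cdr1as knockout and blue for wild type. Pcdhb9, Pcdhb17 and Pcdhb20 were among the 4 highest genes of every group, and Pcdhb1 was close to 0.

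The olfactory bulb had the highest mean summed beta level in both genotypes. Summed over the cluster, the beta counts reached 189 ± 23 CPM in knockout bulb and 181 ± 24.1 CPM in wild-type bulb. Single libraries overlapped between regions. The bulb libraries numbered 2 had 167 CPM in the knockout and 155 CPM in the wild type. The cerebellum libraries numbered 3 had 180 and 170 CPM in the same order. Pcdhb2 to Pcdhb11 summed to 79.8 ± 1.143 CPM in knockout bulb and 75.7 ± 6.31 CPM in wild-type bulb, and to 51.4 to 56.5 CPM in the other knockout groups and 49.6 to 53.7 CPM in the other wild-type groups. They made up 42.2% of the beta level in knockout bulb and 41.7% in wild-type bulb. The share was close to this in the hippocampus, at 40.6% in knockout and 39.1% in wild-type tissue. It was 35.2% and 36.1% in the cortex, and 31.7% and 31.3% in the cerebellum, in the same order. This stretch was chosen after the values were seen. In the other regions the whole cluster summed to 139 ± 5.41 to 162 ± 17.8 CPM in knockout tissue and 137 ± 13 to 158 ± 18.6 CPM in wild-type tissue (SD, n = 3). Of the 21 tested beta genes, 13 had their highest wild-type mean in the bulb and 0 in the hippocampus, where 13 had their lowest.

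Each region was then tested against the mean of the other 3 regions of the same genotype, in the edgeR quasi-likelihood fit over all genes, with a call at a Benjamini-Hochberg adjusted p under 0.05. In the wild-type bulb 9 of 21 beta genes (42.9%) were called higher and 0 lower, and with the alpha row 10 of 23 tested members were called. Over all 17266 genes tested, 47.6% were called in this contrast, 24% higher and 23.6% lower. In the knockout bulb 10 of 21 beta genes (47.6%) were called higher and 1 lower, and 12 of 23 members were called in all. The background in the knockout contrast was 46.6% of all genes, 24.3% higher and 22.3% lower. The share of beta genes called higher was above that of all genes in both genotypes, while the share of members called in either direction was close to it. The median log2 difference of the beta genes was 0.31 in the knockout and 0.22 in the wild type, against 0.021 and 0.010 for all genes.

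Pcdhb6 had the largest difference. It had 7.52, 6.63 and 8.35 CPM in knockout bulb, against 2.33 to 4.12 CPM (median 3.02) in the 9 knockout libraries of the other regions. In wild-type bulb it had 8.15, 8.11 and 6.65 CPM, against 2.74 to 3.51 CPM (median 3.26) in the other 9 wild-type libraries. Every bulb library was thus higher than every library of the other regions, in both genotypes. The log2 difference was 1.28 (SE 0.13) in the knockout, with an edgeR adjusted p of 5.77e-08, and 1.24 (SE 0.13) in the wild type, with an adjusted p of 1.07e-07.

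Pcdhb8 behaved alike in the bulb, with 5.56, 5.25 and 6.12 CPM in knockout bulb against 2.30 to 4.90 CPM (median 3.12) in the other knockout libraries. In wild-type bulb it had 6.77, 5.52 and 5.92 CPM, against 2.55 to 4.39 CPM (median 3.03) elsewhere. Neither genotype had an overlap between the bulb and the other regions. The log2 difference was 0.79 (SE 0.13) in the knockout and 0.89 (SE 0.13) in the wild type, with edgeR adjusted p-values of 4.30e-05 and 1.15e-05.

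Pcdhb10 had 7.60, 7.75 and 6.97 CPM in knockout bulb, against 3.40 to 5.20 CPM (median 4.26) in the other knockout libraries, and 7.78, 6.42 and 6.52 CPM in wild-type bulb, against 3.31 to 5.09 CPM (median 4.45) elsewhere. Pcdhb3 had 8.49, 9.15 and 9.57 CPM in knockout bulb, against 4.46 to 6.92 CPM (median 6.48) elsewhere, and 9.54, 8.88 and 9.05 CPM in wild-type bulb, against 4.36 to 7.38 CPM (median 5.88) elsewhere. For both genes the bulb libraries lay above all others of their genotype. The log2 differences were 0.77 (SE 0.14) and 0.67 (SE 0.14) for Pcdhb10, and 0.61 (SE 0.11) and 0.67 (SE 0.11) for Pcdhb3, in the knockout and the wild type in that order, all called.

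Pcdhb4 was more variable. It had 3.98, 4.36 and 3.74 CPM in knockout bulb, against 1.94 to 3.82 CPM elsewhere, and 5.17, 2.69 and 3.90 CPM in wild-type bulb, against 1.139 to 3.07 CPM elsewhere, so the bulb overlapped the other regions in both genotypes. The difference was called in the wild type (log2 0.81, SE 0.20, edgeR adjusted p = 0.00190) and in the knockout (log2 0.51, SE 0.19, adjusted p = 0.0375). In the knockout the call was lost in 7 of the 12 runs that left out 1 knockout library, where the adjusted p reached 0.139 without bulb replicate 2, and the log2 difference was 0.33 (adjusted p = 0.163) without all libraries numbered 2. The other 4 beta genes called higher in the wild-type bulb were Pcdhb7 (log2 0.56), Pcdhb11 (0.51), Pcdhb20 (0.34) and Pcdhb17 (0.31). None of the 10 calls in the wild-type bulb was lost in the 12 runs that left out 1 wild-type library.

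All 10 members called in the wild-type bulb were also called in the same direction in the knockout bulb, which used other libraries; they were 100% of the wild-type and 83.3% of the knockout calls. Pcdhb9, called higher in the knockout alone, had a log2 difference of 0.37 (SE 0.096, edgeR adjusted p = 0.00288) there and 0.17 in the wild type. Pcdhb14 was lower in the knockout bulb, with a log2 difference of -0.31 (SE 0.12, adjusted p = 0.0427), against -0.077 in the wild type. That call was lost in 8 of 12 runs that left out 1 library, and also with library totals in place of TMM factors (log2 -0.19, adjusted p = 0.170). Whether the bulb difference of Pcdhb9 or Pcdhb14 differed between the genotypes was not shown: no member passed the test of the knockout effect by region.

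The beta genes higher in the bulb sat together in the cluster. From Pcdhb2 to Pcdhb11 all 10 genes had a positive log2 difference in both genotypes, of which 8 were called higher in the knockout and 7 in the wild type, with medians of 0.57 and 0.62. From Pcdhb12 to Pcdhb22 there were 7 positive genes of 11 in the knockout and 9 of 11 in the wild type, 2 of them called higher in each genotype, with medians of 0.17 and 0.13. The division of the cluster after Pcdhb11 was made after the values were seen and was not tested. Over the 21 genes, the Spearman rho of the log2 difference with the position in the cluster was -0.52 in the knockout and -0.61 in the wild type, as a description across genes that share libraries.

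**Figure D2:**
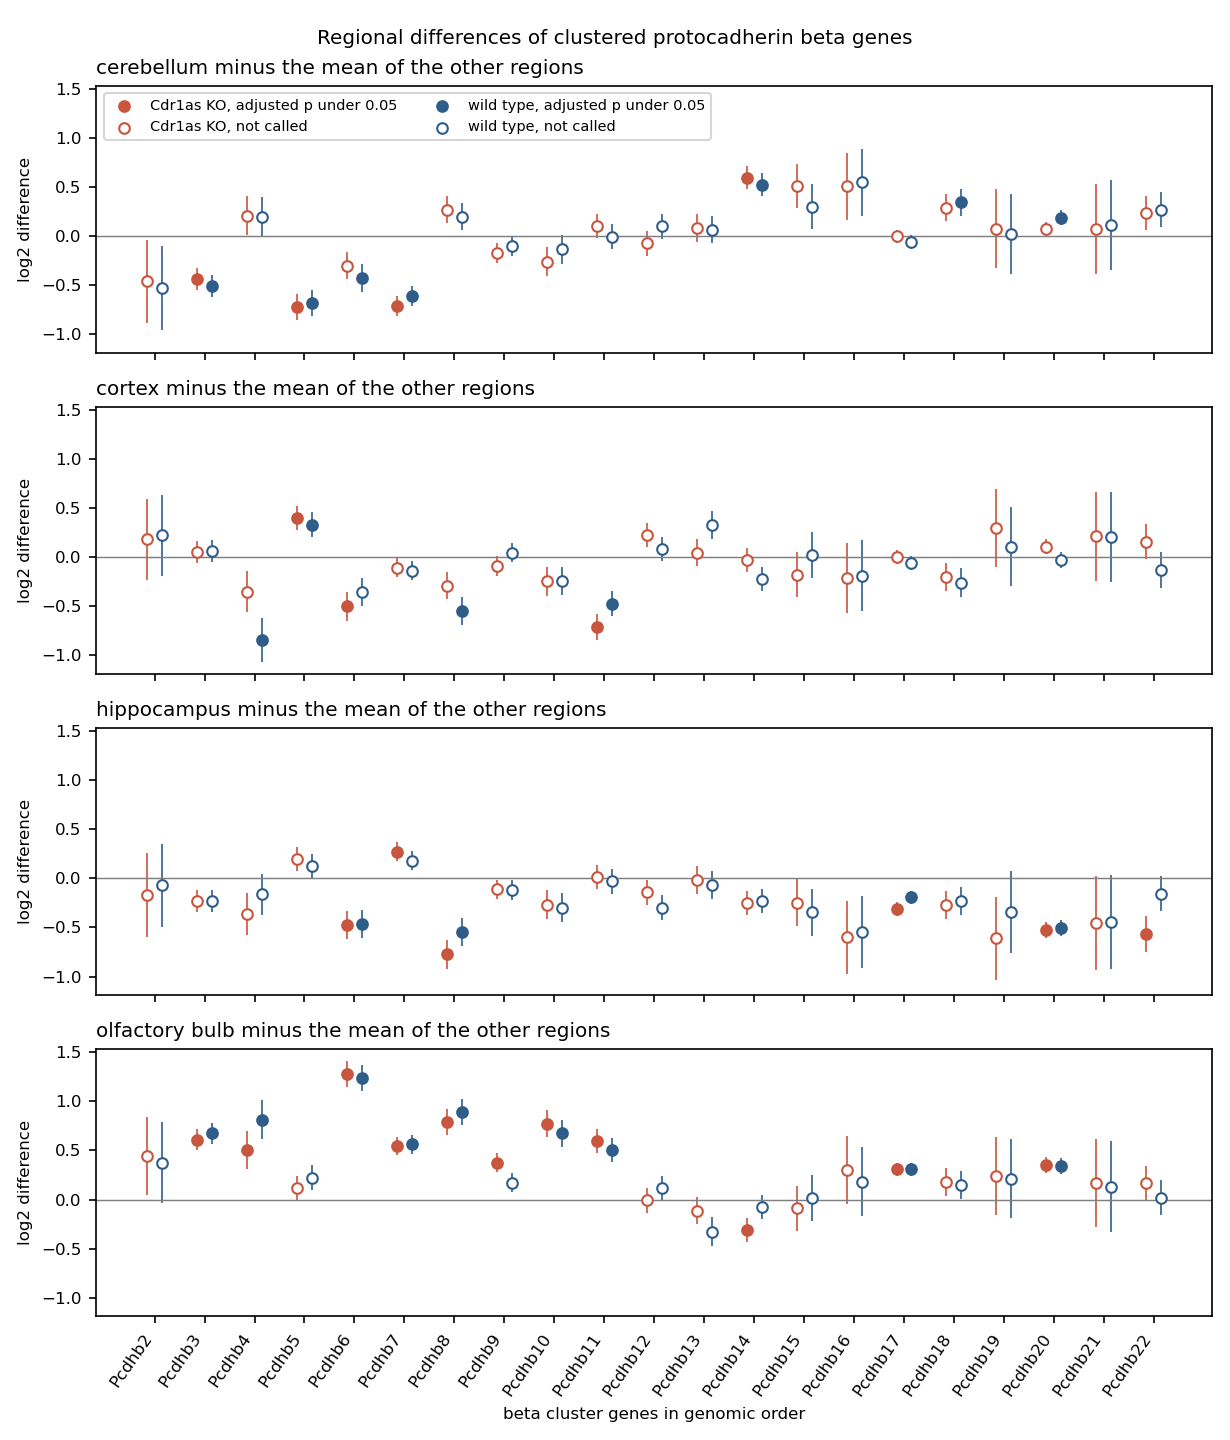
Log2 difference of a region from the mean of the other 3 regions (vertical axis, line for SE) for the 21 tested beta genes in genomic order (horizontal axis), with a panel for each region, red for Cdr1as knockout and blue for wild type; filled points passed an adjusted p of 0.05. The filled points of the bulb lie mostly between Pcdhb3 and Pcdhb11 and above 0, while Pcdhb3, Pcdhb5 and Pcdhb7 lie below 0 in the cerebellum.

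Markers of several cell types differed between the bulb and the other regions together with these beta genes. Of 8 markers of immature neurons, 7 were called higher in the wild-type bulb. Their summed level was 1011 to 1096 CPM in knockout bulb and 1033 to 1115 CPM in wild-type bulb, against 75.7 to 241 CPM in the other knockout regions and 33.7 to 267 CPM in the other wild-type regions. The marker Dlx2 was listed at 0 in all cerebellum libraries, and no other marker of this list was at 0 throughout a group. This list shares a gene with the bulb markers and another with the cortex markers, so it does not measure immature neurons alone. Of 8 oligodendrocyte markers, all 8 were called lower in the wild-type bulb, with sums of 2446 to 3089 CPM in knockout bulb and 2307 to 2716 CPM in wild-type bulb, against 4635 to 6788 CPM in the other knockout regions and 4774 to 6510.2 CPM in the other wild-type regions. Other lists differed in the wild-type bulb as well. All 8 microglia markers were called higher, and of 6 markers of excitatory neurons 5 were called lower and 0 higher. Of 6 markers of inhibitory neurons 4 were called higher and 2 lower, and of 8 of choroid plexus 1 higher and 7 lower. The part of these differences in the beta values was not tested.

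The scaling changed the split of calls over all genes in the bulb. With library totals in place of TMM factors the median log2 difference of all genes in the wild-type bulb was 0.16, against 0.010 with TMM. The calls then split into 5909 higher and 2827 lower genes, against 4147 and 4080 with TMM. The 10 members called with TMM were all called under both scalings, among 12 called with library totals, so the directions given for the bulb hold under both.

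In the cerebellum, Pcdhb5 and Pcdhb7 were lower and Pcdhb14 higher than in the other regions in both genotypes. In the wild type 7 of 23 members were called, 3 higher and 4 lower, against 57.8% of all genes, 29.5% higher and 28.3% lower. In the knockout 4 of 23 were called, 1 higher and 3 lower, against 59.6% of all genes, 30.4% higher and 29.2% lower. The share of members called was thus below that of all genes in both genotypes. All 4 knockout calls were among the 7 wild-type calls, which makes 100% of the knockout and 57.1% of the wild-type calls.

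Pcdhb5 had 3.49, 4.75 and 3.99 CPM in knockout cerebellum, against 5.82 to 7.55 CPM (median 6.80) in the other knockout libraries, and 4.72, 4.01 and 3.19 CPM in wild-type cerebellum, against 5.06 to 7.27 CPM (median 6.48) elsewhere. Pcdhb7 had 6.28, 6.31 and 7.55 CPM in knockout cerebellum, against 8.30 to 13.8 CPM (median 11.4) elsewhere, and 6.57, 5.83 and 5.94 CPM in wild-type cerebellum, against 7.16 to 12.3 CPM (median 9.08) elsewhere. Every cerebellum library was lower than every other library of its genotype for both genes. Pcdhb5 had log2 differences of -0.72 (SE 0.13) in the knockout and -0.68 (SE 0.13) in the wild type, with edgeR adjusted p-values of 8.00e-05 and 0.000163. Pcdhb7 had log2 differences of -0.71 (SE 0.10) and -0.61 (SE 0.10) in the same order, with adjusted p-values of 4.03e-06 and 3.19e-05.

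Pcdhb3 was lower as well, with log2 differences of -0.43 (SE 0.11) in the knockout and -0.51 (SE 0.11) in the wild type, both called; without the libraries numbered 2 the knockout call was lost (log2 -0.30, edgeR adjusted p = 0.0929). Pcdhb6 was called lower in the wild type alone, at -0.42 (SE 0.14, adjusted p = 0.0159), against -0.30 (adjusted p = 0.0746) in the knockout. Bulb libraries, where Pcdhb6 was highest at a wild-type mean of 7.64 CPM, are part of this comparison. The wild-type cerebellum mean of 3.22 CPM lay between the hippocampus mean of 3.14 CPM and the cortex mean of 3.34 CPM. The Pcdhb6 call was lost without wild-type cerebellum replicate 2 (adjusted p = 0.0704) and without all libraries numbered 2 (adjusted p = 0.119).

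Pcdhb14 was the clearest beta gene higher in the cerebellum. It had 12, 10.8 and 13.5 CPM in knockout cerebellum, against 6.65 to 9.34 CPM (median 8.15) elsewhere, and 11.1, 10.2 and 12.6 CPM in wild-type cerebellum, against 6.73 to 9.88 CPM (median 7.58) elsewhere. The cerebellum libraries lay above all others in both genotypes, with log2 differences of 0.60 (SE 0.12, edgeR adjusted p = 0.000175) in the knockout and 0.52 (SE 0.12, adjusted p = 0.000706) in the wild type. Pcdhb18 (log2 0.35, adjusted p = 0.0381) and Pcdhb20 (log2 0.19, adjusted p = 0.0473) were called higher in the wild type alone, and these calls were lost in 6 and 10 of the 12 runs that left out 1 wild-type library. The Pcdhb20 call was also lost under each other setting that kept the unblocked design (adjusted p = 0.0537 to 0.115), and the Pcdhb18 call with DESeq2 size factors (adjusted p = 0.0504). Over the 21 beta genes the rho of the log2 difference with position was 0.54 in the knockout and 0.61 in the wild type. Since the 4 contrasts of a genotype sum to 0, this value and that of the bulb are not independent. Of 8 microglia markers, all 8 were called lower in the wild-type cerebellum. Of 8 markers of immature neurons 7 were called lower and 1 higher, and of 6 of excitatory neurons 5 lower and 0 higher. The part of these markers in the member values was not tested.

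In the cortex the alpha row was the most distinct member. It had 239, 212 and 244 CPM in knockout cortex, against 147 to 188 CPM (median 178) in the other knockout libraries, and 234, 217 and 225 CPM in wild-type cortex, against 141 to 191 CPM (median 174) elsewhere. All cortex libraries were higher than all others of their genotype. The log2 difference was 0.43 (SE 0.059, edgeR adjusted p = 5.11e-06) in the knockout and 0.40 (SE 0.059, adjusted p = 1.22e-05) in the wild type.

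In the wild-type cortex 5 of 23 members were called, 2 higher and 3 lower, against 44.1% of all genes, 24.1% higher and 20.0% lower. In the knockout cortex 4 were called, 2 in each direction, against 44.3% of all genes, 23.9% higher and 20.4% lower. These shares of members lay below those of all genes. The alpha row, Pcdhb5 and Pcdhb11 were called in both genotypes, 75.0% of the knockout and 60.0% of the wild-type calls.

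Pcdhb11 had 3.81, 4.06 and 3.86 CPM in knockout cortex, against 5.21 to 8.37 CPM (median 6.31) elsewhere, with no overlap. In wild-type cortex it had 4.48, 4.52 and 4.48 CPM, and 1 wild-type library outside the cortex, a cerebellum library at 4.23 CPM, was lower. The log2 difference was -0.71 (SE 0.13, edgeR adjusted p = 0.000171) in the knockout and -0.47 (SE 0.13, adjusted p = 0.00561) in the wild type. Pcdhb5 was higher in the cortex, with log2 differences of 0.40 (SE 0.12, adjusted p = 0.0108) in the knockout and 0.33 (SE 0.12, adjusted p = 0.0349) in the wild type. The wild-type call of Pcdhb5 was lost in 4 of 12 runs that left out 1 library and with library totals in place of TMM factors (log2 0.25, adjusted p = 0.122).

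Pcdhb4 had 3.21, 1.94 and 2.56 CPM in knockout cortex and 2.14, 1.139 and 1.72 CPM in wild-type cortex. It was called lower in the wild-type cortex (log2 -0.84, SE 0.22, edgeR adjusted p = 0.00407) but not in the knockout cortex (-0.35, SE 0.21, adjusted p = 0.181). Pcdhb8 was called lower in the wild-type cortex at -0.55 (SE 0.15, adjusted p = 0.00454), against -0.29 (adjusted p = 0.107) in the knockout. Pcdhb6 was called lower in the knockout cortex at -0.50 (SE 0.14, adjusted p = 0.00779), against -0.35 (adjusted p = 0.0509) in the wild type. The Pcdhb6 call was lost without the libraries numbered 2 (adjusted p = 0.0567). The other regions include the bulb, where both Pcdhb6 and Pcdhb8 were highest. Knockout Pcdhb6 means were 2.97 CPM in cortex, 3.02 in hippocampus, 3.30 in cerebellum and 7.50 in bulb. Wild-type Pcdhb8 means were 2.88 CPM in cortex, 2.87 in hippocampus, 4.23 in cerebellum and 6.07 in bulb. In the wild-type cortex 5 of 6 markers of excitatory neurons, 8 of 8 of microglia and 7 of 8 of oligodendrocytes were called higher, and their part in the member values was not tested.

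In the hippocampus the beta genes were low as a group, though few passed the test. Of the 21 beta genes 18 in the knockout and 19 in the wild type had a negative log2 difference, with medians of -0.27 and -0.23, against -0.034 and -0.022 for all genes. In the knockout 6 of 23 members were called, 1 higher and 5 lower, against 39.9% of all genes, 20.7% higher and 19.3% lower. In the wild type 4 were called, all lower, against 37.4% of all genes, 19.7% higher and 17.7% lower. The shares of members called in either direction were below those of all genes. Of the 21 beta genes, 23.8% in the knockout and 19.0% in the wild type were called lower, against 19.3% and 17.7% of all genes. All 4 wild-type calls were also knockout calls, 66.7% of these.

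Pcdhb20 had 11.8, 12.2 and 10.1 CPM in knockout hippocampus, against 13.8 to 18.2 CPM (median 17.1) elsewhere, and 10.02, 11.2 and 10.6 CPM in wild-type hippocampus, against 13.3 to 17.7 CPM (median 15.1) elsewhere. No hippocampus library reached any other library of its genotype. The log2 difference was -0.53 (SE 0.083, edgeR adjusted p = 2.72e-05) in the knockout and -0.50 (SE 0.083, adjusted p = 5.13e-05) in the wild type. Pcdhb8 was lower too, at -0.77 (SE 0.15, adjusted p = 0.000269) in the knockout and -0.55 (SE 0.15, adjusted p = 0.00513) in the wild type. Unlike those of Pcdhb20, its hippocampus libraries overlapped other libraries in both genotypes. Wild-type hippocampus (mean 2.87 CPM) was close to cortex (2.88 CPM) and below cerebellum (4.23 CPM) and bulb (6.07 CPM). Knockout libraries ranged over 2.37 to 2.63 CPM in hippocampus and 2.30 to 4.21 CPM in cortex.

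Pcdhb6 was called lower in knockout hippocampus (log2 -0.48, edgeR adjusted p = 0.0126) and wild-type hippocampus (-0.46, adjusted p = 0.0148). These calls were lost in 2 of 12 runs and 1 of 12 runs that left out 1 library, and in both genotypes without the libraries numbered 2. Here too the other regions include the bulb. Pcdhb6 had means of 3.02, 2.97 and 3.30 CPM in knockout hippocampus, cortex and cerebellum. In the wild type the means were 3.14, 3.34 and 3.22 CPM in that order. Pcdhb17, the beta gene with the most CPM in every group, was called at -0.31 (adjusted p = 0.00117) in the knockout and -0.19 (adjusted p = 0.0322) in the wild type, where the call was lost in 6 of 12 runs and under DESeq2. Pcdhb22, called lower in the knockout alone (log2 -0.57, adjusted p = 0.0196), lost its call in 1 of 12 runs. Pcdhb7 was the single member higher, in the knockout (log2 0.27, adjusted p = 0.0290), and lost its call in 2 of 12 runs, without the filter on low counts (adjusted p = 0.0649) and without the libraries numbered 2 (adjusted p = 0.0862). Of the markers in the wild-type hippocampus, 5 of 6 of excitatory neurons, 7 of 8 of microglia, 5 of 8 of oligodendrocytes and 7 of 8 of choroid plexus were called higher. The 6 markers of inhibitory neurons were split, with 4 called lower and 2 higher. In the knockout hippocampus 2 of 8 choroid plexus markers were called lower and 0 higher. The part of these markers in the member values was not tested.

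The whole alpha row varied differently from the beta cluster, while the gamma row varied little. Where the beta genes were highest, in the bulb, the alpha row was lowest, with 159, 147 and 159 CPM in knockout bulb against 166 to 244 CPM (median 186) elsewhere, and 164, 141 and 141 CPM in wild-type bulb against 171 to 234 CPM (median 190) elsewhere. The bulb was below every other library in both genotypes, and the log2 difference was -0.34 (SE 0.061, edgeR adjusted p = 0.000104) in the knockout and -0.39 (SE 0.062, adjusted p = 2.11e-05) in the wild type. The gamma row was called in no region of either genotype, with log2 differences between -0.11 and 0.077 and SEs near 0.11. Like the summed beta level, its mean was highest in the bulb and lowest in the hippocampus. These means were 799 and 724 CPM in the knockout and 765 and 700 CPM in the wild type, and libraries of the regions overlapped.

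**Figure D3:**
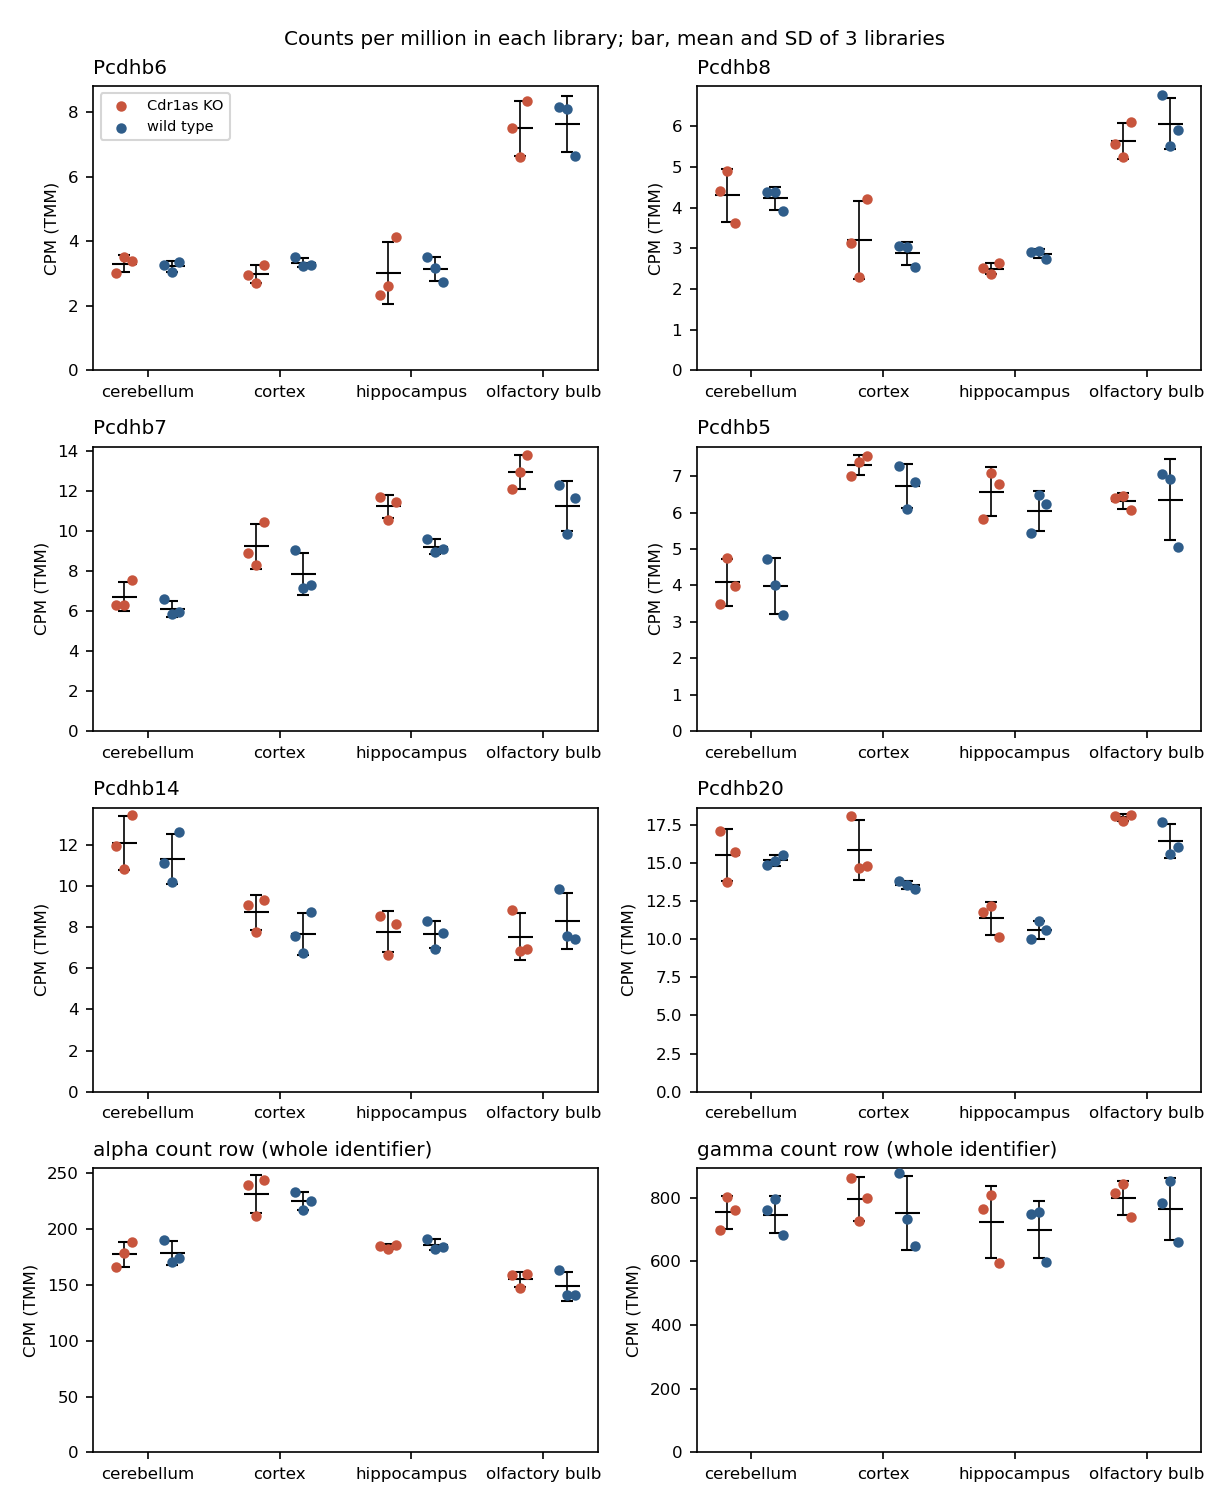
CPM (vertical axis, from 0) in each library of 4 regions (horizontal axis) for 6 beta genes and the whole alpha and gamma count rows, red for Cdr1as knockout and blue for wild type; points are libraries, black bars the mean and SD of 3 libraries. Pcdhb6 and Pcdhb8 are highest in the bulb, Pcdhb5 and Pcdhb7 lowest and Pcdhb14 highest in the cerebellum, Pcdhb20 lowest in the hippocampus, and the alpha row highest in the cortex and lowest in the bulb.

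The regional differences called in the wild type had the same direction in the knockout. All 7, 5, 4 and 10 members called in the wild-type cerebellum, cortex, hippocampus and bulb had the same sign in the knockout. Over the 21 tested beta genes, the log2 differences of the knockout and the wild type correlated at r = 0.97 in the cerebellum, 0.79 in the cortex, 0.87 in the hippocampus and 0.93 in the bulb. The knockout and wild-type values share no library, but genes are not independent replicates, so these are descriptions.

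No clustered protocadherin passed the edgeR test between knockout and wild type, but Pcdhb7 passed it under other settings. In the mean of the 4 regions, 0 of 23 members passed, against 2.68% of all genes, 1.81% higher and 0.863% lower, and 3 had an unadjusted edgeR p under 0.05. In single regions 0 of 23 members passed in the cerebellum, the cortex, the hippocampus and the bulb, where 0%, 0.0379%, 0% and 0% of all genes passed. The only member with an unadjusted p under 0.05 in a single region was Pcdhb7 in the hippocampus. DESeq2 called 1 member, Pcdhb7, in the mean and 0 in each single region. With the replicate number as a block, edgeR called 1256 of 17266 genes in the mean, among the members Pcdhb7 alone. Over the mean, the log2 differences of the 23 members lay between -0.055 and 0.27, with SEs of 0.037 for the alpha row to 0.28 for Pcdhb21.

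Pcdhb7 came nearest to a call. In the cerebellum it had 6.28, 6.31 and 7.55 CPM in knockout libraries and 6.57, 5.83 and 5.94 CPM in wild-type libraries, and in the cortex 8.89, 8.30 and 10.5 CPM in knockout and 9.05, 7.16 and 7.29 CPM in wild-type libraries. In the hippocampus it had 11.7, 10.6 and 11.4 CPM in knockout and 9.61, 8.94 and 9.08 CPM in wild-type libraries, and in the bulb 12.1, 13 and 13.8 CPM in knockout and 12.3, 9.84 and 11.6 CPM in wild-type libraries. The genotypes separated fully in the hippocampus and overlapped in the other regions. The mean log2 difference was 0.22 (SE 0.060), with an unadjusted p of 0.00178 and an edgeR adjusted p of 0.0591. The adjusted p was 0.0159 under DESeq2, 0.0472 in edgeR with the replicate number as a block, 0.0262 without wild-type cortex replicate 1, 0.0469 without knockout cortex replicate 2 and 0.236 without all libraries numbered 2.

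The next smallest p-values in the mean belonged to Pcdhb20 (log2 0.12, SE 0.049, edgeR adjusted p = 0.227), Pcdhb4 (0.27, SE 0.13, adjusted p = 0.330), Pcdhb17 (0.044, SE 0.042, adjusted p = 0.748) and Pcdhb9 (0.059, SE 0.060, adjusted p = 0.770). None of these passed. The median log2 difference of the 21 beta genes was 0.035, against -0.0012 for all genes. The alpha row had a log2 difference of 0.021 (SE 0.037) and the gamma row of 0.051 (SE 0.066).

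Within single regions the smallest p-values were spread over several beta genes. In the cerebellum they belonged to Pcdhb4 (log2 0.28), Pcdhb12 (-0.15), Pcdhb15 (0.26), Pcdhb7 (0.13) and Pcdhb17 (0.082), and in the cortex to Pcdhb4 (0.63), Pcdhb20 (0.22), Pcdhb22 (0.22), Pcdhb7 (0.23) and Pcdhb13 (-0.25). In the hippocampus they belonged to Pcdhb7 (0.28), Pcdhb8 (-0.20), Pcdhb22 (-0.30), Pcdhb20 (0.10) and Pcdhb5 (0.12), and in the bulb to Pcdhb9 (0.19), Pcdhb7 (0.19), Pcdhb20 (0.11), Pcdhb12 (-0.12) and Pcdhb14 (-0.15). All had edgeR adjusted p-values of at least 0.954. For the difference of the knockout effect between regions, 0 of 23 members passed, against 0.0232% of all genes, and Pcdhb4, Pcdhb22, Pcdhb9, Pcdhb14 and Pcdhb8 had the smallest unadjusted p-values, 0.377 to 0.495.

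**Figure D4:**
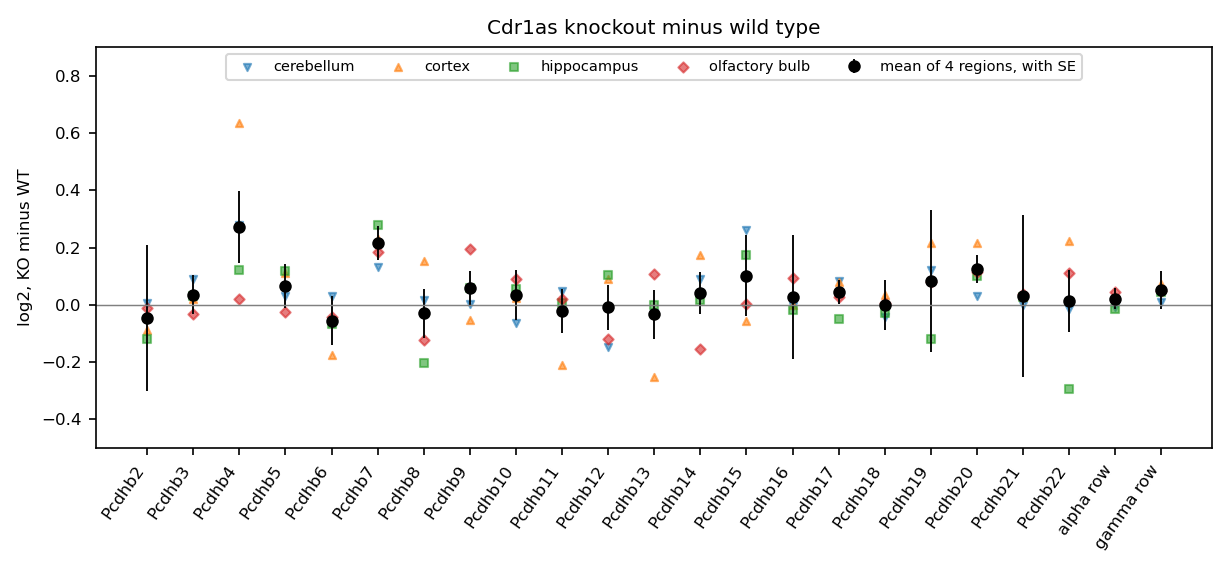
Log2 difference of Cdr1as knockout minus wild type (vertical axis) for the 23 tested members (horizontal axis); black points and lines are the mean of 4 regions and its SE, small symbols the single regions. Pcdhb4, Pcdhb7, Pcdhb20 and the gamma row lie above 0 in every region, and the lines of Pcdhb2, Pcdhb16, Pcdhb19 and Pcdhb21 are the longest.

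Choroid plexus markers differed between the genotypes beside these values: 1 of 8, Clic6, was called lower in the mean of the knockout regions and the other 7 also had negative log2 differences. Their sum ranged over 37.2 to 49.5 CPM in knockout hippocampus and 40.7 to 3271 CPM in wild-type hippocampus. In the cerebellum it ranged over 372 to 1307 CPM in knockout and 29.0 to 2371 CPM in wild-type libraries, and no marker of the list was at 0 throughout a group. Of 7 markers of the bulb, 1 was called lower in the knockout mean and the other 6 had negative log2 differences. Olig2, 1 of 6 markers of oligodendrocyte precursors, and Kdr, 1 of 7 of endothelium, were called lower, with 5 of 6 and 3 of 7 negative. Hippocampus markers went the other way: 1 of 7 was called higher and 6 of 7 had positive log2 differences. Of the markers of microglia 7 of 8 and of inhibitory neurons 6 of 6 were negative, with 0 called. The part of these markers in the member values was not tested.

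Regulators and partners of the clustered protocadherins were measured alongside. Of 24 chromatin regulators, which include CTCF and cohesin subunits needed for promoter choice and factors such as SETDB1 and SMCHD1 that are known to hold these clusters in check in mice, 0 passed in the knockout mean, with a median log2 difference of 0.041. Their smallest p-values were those of Ctcf (log2 0.075, edgeR adjusted p = 0.169), Setdb1 (0.16, adjusted p = 0.287) and Hells (-0.23, adjusted p = 0.443). Ctcf averaged 126 ± 6.18 CPM in knockout cerebellum and 117 ± 1.95 CPM in wild-type cerebellum, and its mean was lower in each other region of both genotypes (SD, n = 3). In the wild-type cerebellum 14 of the 24 were called higher and 1 lower (29.5% and 28.3% of all genes), and in the wild-type cortex 0 higher and 14 lower (24.1% and 20.0%). In the wild-type hippocampus 1 was higher and 7 lower (19.7% and 17.7% of all genes), and in the wild-type bulb 7 higher and 0 lower (24% and 23.6%), so the 7 higher in the bulb were near the share of all genes.

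Of 20 signalling partners, such as kinases and actin regulators of the WAVE complex, 0 passed in the knockout mean, with edgeR adjusted p-values of 0.225 for Axin1 (log2 0.10) and 0.371 for Ptk2 (log2 -0.069). Among 12 non-clustered protocadherins, which lie outside these clusters and have their own promoters, 1 passed: Pcdh1, with a log2 difference of 0.25 (SE 0.060, edgeR adjusted p = 0.0251). Pcdh1 averaged 252 ± 9.98 CPM in knockout bulb and 186 ± 19.0 CPM in wild-type bulb, and 107 ± 9.52 CPM in knockout cerebellum and 97.2 ± 1.39 CPM in wild-type cerebellum. In the wild type, 1 of these 12 genes was called higher and 9 lower in the cerebellum (median log2 -1.77), 9 higher and 1 lower in the cortex (0.62), 4 higher and 2 lower in the hippocampus (0.033), and 7 higher and 3 lower in the bulb (0.66), against the shares of all genes given above.

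A group of beta genes varied with the replicate number of the library. Pcdhb2, Pcdhb16, Pcdhb19 and Pcdhb21 were lowest in the library numbered 2 in all 8 groups, 4 of 23 members, whereas 4.28% of all genes tested were. Number 1 was lowest in all 8 groups for 0.353% and number 3 for 0.110% of all genes, and for 0 members. This pattern was looked for after the values were seen, and what the number stands for is not given in the sources used here. The Cdr1asG row was also lowest in number 2 in 7 of 8 groups, for example 2.26 CPM in wild-type hippocampus against 12 and 8.56 CPM in numbers 1 and 3.

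Pcdhb21 shows it in the bulb, with 6.08, 1.28 and 3.60 CPM in the knockout libraries 1, 2 and 3 and 4.83, 1.33 and 4.42 CPM in the wild-type libraries. Pcdhb19 had 16.5, 4.88 and 11.2 CPM in knockout bulb and 14.5, 4.09 and 11.8 CPM in wild-type bulb. Averaged over the 8 groups, number 2 stood below the mean of numbers 1 and 3 by a log2 difference of -1.27 for Pcdhb21, -1.19 for Pcdhb2, -1.13 for Pcdhb19 and -0.97 for Pcdhb16. Among all genes the middle 90% of this value lay between -0.49 and 0.34.

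The remaining beta genes moved less. Pcdhb22 (log2 -0.40), Pcdhb14 (-0.24), Pcdhb12 (-0.23) and the alpha row (-0.080) were lowest in number 2 in 7 of 8 groups, so that with the 4 above 8 of 23 members were lowest in at least 7 groups, against 7.71% of all genes. At least 7 groups had number 1 lowest for 2.88% and number 3 for 1.15% of all genes. Pcdhb13, with a mean of 0.0067, ranged from -0.47 to 0.49 over the groups, and Pcdhb11, with a mean of -0.037, from -0.61 to 0.24. Pcdhb20 stayed between -0.26 and 0.15. The gamma row was lowest in number 3 in 6 groups and highest in number 2 in 6 groups.

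These 4 genes had the widest spread within groups: the median coefficient of variation over the 8 groups was 44.3% for Pcdhb21, 39.3% for Pcdhb2, 38.1% for Pcdhb19 and 35.8% for Pcdhb16, and 9.36%, 6.91%, 10.9% and 11% over numbers 1 and 3 alone. None of them was called in any comparison. They are not neighbours in the cluster, and the share of their 50-base stretches found in other beta genes was 2.05% to 11.3%, within the range of the cluster. Libraries numbered 2 had 26974679 to 40472007 gene counts, against 21068566 to 39541259 gene counts in numbers 1 and 3. Reads that aligned to several places made up 11.8% to 13.5% in libraries numbered 2 and 10.3% to 13.3% in the others. The part of position, shared sequence, depth or alignment in the pattern was not tested.

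**Figure D5:**
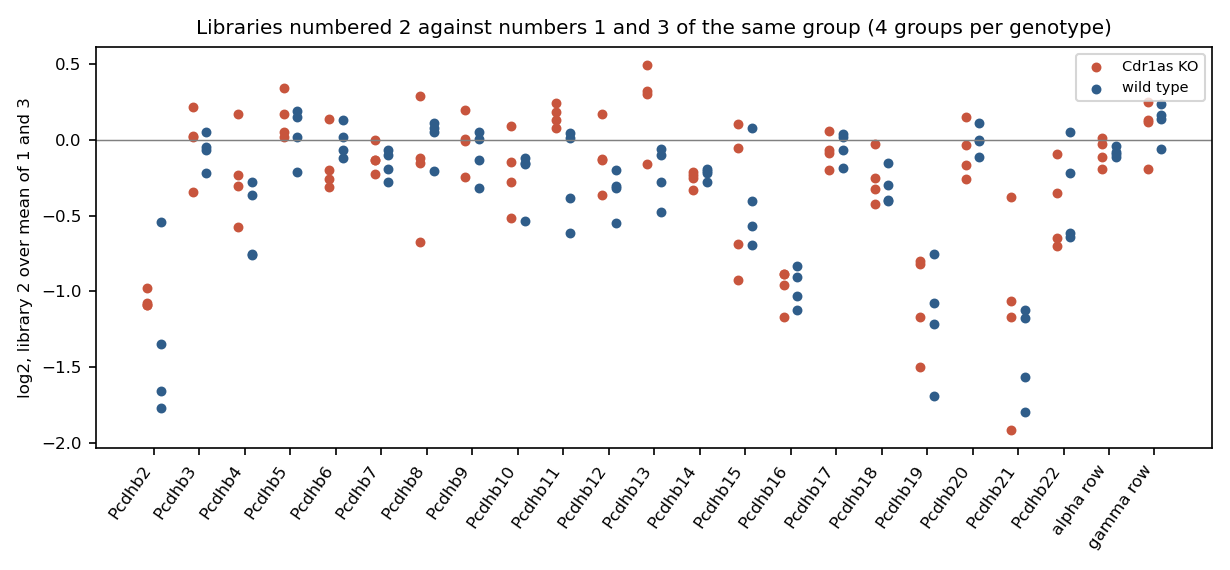
Log2 ratio of the library numbered 2 to the mean of numbers 1 and 3 of the same group (vertical axis) for the 23 tested members (horizontal axis), with a point for each of 4 knockout groups (red) and 4 wild-type groups (blue). All 8 points of Pcdhb2, Pcdhb16, Pcdhb19 and Pcdhb21 lie below 0, with means between -1.27 and -0.97.

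Most bulb calls were kept without the libraries numbered 2. The wild-type bulb then had 12 called members, including the 10 called with all libraries, and the knockout bulb had 11, of which 10 were among its 12, Pcdhb4 and Pcdhb14 being lost. In the wild-type hippocampus the count dropped to 2 called members, Pcdhb8 and Pcdhb20.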

How the data were processed

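Per the labels' protocols, RNA was extracted with TRIzol and libraries were made with a stranded mRNA kit. The authors deposited whole-number counts of reads for each gene, with no normalization. Per the submitters' processing notes, the tools were bcl2fastq 2.17.1.14, STAR 2.5.1b and HTSeq 0.6.1p1 with mm9; whether counting used the strand is not given in the sources used here. The 5 summary lines that name no gene were left out; ambiguous reads were 0.576% to 0.764% of all counts, non-unique ones 10.3% to 13.5% and those in no feature 8.22% to 16.8%.

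Tests were run on the counts with edgeR 4.0.16 in R 4.3.3 (filterByExpr with a minimum count of 10, TMM, quasi-likelihood F test with robust=TRUE), with DESeq2 1.42.0 as an alternative. Region contrasts, the mean knockout effect and the interaction came from 1 fit of 8 groups on 24 libraries, and regional knockout effects from 6 libraries each. Adjustment was by Benjamini-Hochberg across every gene in a fit. The procedure was tested on simulated data. No 2 libraries of a group were alike within sampling noise (chi-square per degree of freedom 6.61 to 56.1 over 24 pairs). Exon lengths and 50-base stretches came from a GENCODE GRCm38 annotation matched by identifier, not the counted build, so no positions are given.

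Within a region, same-numbered libraries of both genotypes deviated together in the cerebellum (correlations of 0.235 to 0.546), hippocampus (0.240 to 0.482) and bulb (0.166 to 0.668). Libraries with other numbers had correlations of -0.409 to 0.192, -0.427 to 0.237 and -0.525 to 0.345 in that order, so the bulb ranges overlapped. Equal numbers were taken as pairs in these regions from these data, but the main tests did not use the pairs. In the cortex not every same-numbered pair deviated together (-0.071 to 0.553, other numbers -0.547 to 0.352). The members, gene lists and marker lists were chosen with earlier results of these data known. Named were the members of each region contrast with the largest called log2 (5 beta genes per direction), the 5 smallest p of each knockout comparison, the extremes per kilobase and, per list, called genes or the 3 smallest p; other members were named after their values were seen. One gene that this rule names is not reported here.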

Additional observations from a re-analysis of the deposited data

How the results depend on the processing

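Members called in a region against the others, and the absence of calls in single-region knockout comparisons and in the interaction, stayed within 1.5 times of the reported counts with library totals or DESeq2 size factors in place of TMM, without the filter on low counts, and under DESeq2. In the knockout mean, 1 member in place of 0 was called under DESeq2 and 1 with the replicate number as a block, Pcdhb7 both times, and 0 to 1 when single libraries were left out. With the replicate block, 10 members in place of 4 were called in the knockout cerebellum and 7 in place of 4 in the wild-type hippocampus, and the block ended no call of a named member. Equal numbers were not established as pairs across regions or in the cortex. Without the libraries numbered 2, the wild-type hippocampus had 2 calls, and without single libraries 2 to 5, lowest without wild-type hippocampus replicate 3. With library totals, the calls of all genes split into 5592 higher and 2803 lower in the knockout bulb, against 4197 and 3853 with TMM, 3321 and 4548 in the knockout cortex, against 4121 and 3523, and 3317 and 4448 in the wild-type cortex, against 4157 and 3458.

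The log2 difference of Pcdhb17 between knockout and wild-type cerebellum ranged from -0.021 (without knockout replicate 3) to 0.15 when single libraries were left out, and that of Pcdhb14 in the bulb from -0.29 to 0.0045 (without wild-type replicate 1); neither was called. Per kilobase of coding length, chosen after seeing the data, wild-type Pcdhb20 had 6.33 CPM in the cerebellum and Pcdhb9 5.34 in the cortex, 4.90 in the hippocampus and 5.69 in the bulb, all below Pcdhb17. The cause of these changes was not tested, apart from the shorter length. Pcdhb1, at 0 to 7 counts, was too shallow for any test.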
